A study of Mus musculus with 15 samples.

Results

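The comparison set GCPB+ cells against GPB+ cells, sorted populations of the mouse ventricular-subventricular zone (V-SVZ) that differ in the surface protein CD133. Its members are the 6 libraries of these groups, 3 a group, of 15 in the series, and they were taken by their titles. All came from hGFAP::GFP animals, in which a human GFAP promoter drives green fluorescent protein in astrocytes and neural stem cells, and animals of both sexes were pooled. Both groups were sorted as GFP-positive, PDGFRβ-positive, EGFR-negative and CD24-negative. GCPB+ cells carried CD133 and GPB+ cells did not. The labels give no age. They also leave unsaid whether each replicate is its own set of animals, so the p-values reflect spread among libraries that may be technical. The question was how alike the groups are beyond CD133, which fold changes the counts exclude and which genes changed in every pair of same-numbered libraries.

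The V-SVZ lines the lateral ventricles and keeps neural stem cells into adult life. These cells share most of their expressed genes with astrocytes, and those that reach the ventricle carry a primary cilium. CD133, or prominin-1, is a membrane protein of apical protrusions and cilia and is the product of Prom1. Sorters use it to enrich ventricle-contacting stem cells. PDGFRβ is a receptor tyrosine kinase for PDGF, EGFR marks activated stem cells and their progeny, and CD24 marks neuroblasts and ependymal cells.

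The 6 libraries held 14818000 to 33665687 counts. The correlation of log2 CPM (counts scaled to normalized library totals) across genes was 0.928 to 0.969 within groups and 0.926 to 0.968 between them. Over well-measured genes the median SD of log2 CPM was 0.28 within GPB+ and 0.24 within GCPB+, and the median absolute difference between the group means was 0.21. A gene was called well measured when it reached a mean of 10 CPM over the 6 libraries, which 9289 of 16302 tested genes did.

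Prom1 (GRCm38 chromosome 5, 43993621 to 44102047) gives the check of the gate rather than a finding, because sorting used the protein it encodes. It measured 26.7, 34.6 and 24.0 CPM in GPB+ and 139, 181 and 138 CPM in GCPB+, in the order of replicates 1, 2 and 3. Every GCPB+ library lay above every GPB+ library, and GPB+ was not at 0. The log2 fold change was 2.43 ± 0.30 (SE), a 5.39-fold difference with a 95% interval of 3.54 to 8.19 (edgeR quasi-likelihood test, adjusted p = 0.00611). Without GPB+ replicate 3 the adjusted p was 0.0542, at a log2 fold change of 2.30.

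For Pdgfrb and Egfr, which the gates treated alike in both groups, 2-fold differences were excluded. Pdgfrb measured 244, 536 and 291 CPM in GPB+ and 296, 417 and 312 CPM in GCPB+, so the groups overlapped. Its log2 fold change was -0.06 with a 95% interval of -0.80 to 0.68, and the adjusted p against a 2-fold change was 0.0225 (2 one-sided edgeR tests). Egfr measured 142, 180 and 190 CPM in GPB+ and 105, 151 and 210 CPM in GCPB+, with an adjusted p of 0.00354 in the same edgeR tests. Egfr RNA was thus present in both groups, although both were sorted as lacking the protein at the surface.

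Gfap, whose human promoter drives the reporter, measured 83.1, 146 and 134 CPM in GPB+ and 146, 223 and 262 CPM in GCPB+. The groups met at their edges, and the log2 fold change of 0.80 (95% interval -0.04 to 1.63) did not pass (edgeR adjusted p = 0.706). Gfap was higher in GCPB+ in all 3 same-numbered pairs, and a 2-fold change was not excluded. Cd24a stayed at or under 2.61 CPM in all 6 libraries, and a 2-fold change was not excluded there either.

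Few genes passed the test for a difference. Of 16302 genes tested across all 15 libraries, 5 passed at an adjusted p of 0.05, which is 0.0307% of them. Of these, 4 were higher in GCPB+ (0.0245%) and 1 was lower (0.00613%). At an unadjusted p under 0.05 there were 627 higher and 533 lower genes, 7.12% in all. The fit also held GCEPB+ cells (sorted for PDGFRβ, CD133 and EGFR), GCEPB- cells (the same without PDGFRβ) and GFP-positive cortical astrocytes, from the same strain and pooled sexes. In it, 36.1% of genes differed between GCEPB+ and GCPB+, 6.74% between GPB+ and cortical astrocytes, and 11.1% between GCEPB+ and GCEPB-. These comparisons share libraries with one another, so their counts are set side by side only.

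Tagln3 (chromosome 16), which encodes a neuronal member of the transgelin family, was the other called gene above 20 CPM. It measured 93.5, 86.1 and 74.5 CPM in GPB+ and 167, 186 and 154 CPM in GCPB+. The lowest GCPB+ library stood well above the highest GPB+ library. The log2 fold change was 0.99, with a 95% interval of 0.67 to 1.32 (edgeR adjusted p = 0.0371). The call ended in every fit that left out 1 of the 6 libraries, with adjusted p from 0.0778 to 0.197. It ended as well when the fit held the 6 libraries alone, with an edgeR adjusted p of 0.392, or 0.0962 with replicate numbers as a block. With that block in all 15 libraries it was kept (adjusted p = 0.0285).

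The remaining 3 called genes lay under 20 CPM and are named because they passed, after their values were seen. Plxna2, a semaphorin receptor (chromosome 1), measured 1.80, 2.16 and 2.43 CPM in GPB+ and 6.30, 6.39 and 7.16 CPM in GCPB+. These libraries did not overlap, and the log2 fold change was 1.63 (95% interval 1.08 to 2.19, edgeR adjusted p = 0.0387). Its call was lost in the 6 libraries alone (edgeR adjusted p = 0.865, or 0.358 with the block) and with the block in all libraries (0.0656).

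Bid, a pro-apoptotic BCL-2 family gene (chromosome 6), had no count in any GPB+ library and 37, 33 and 32 counts in GCPB+. With the GPB+ group set to a floor of 3 counts, the ratio of GCPB+ over GPB+ was 27.9. From the counts themselves, the exact 95% counting interval of the ratio began at 22.3. The edgeR adjusted p was 0.0371, against 0.573 in the 6 libraries alone and 0.333 there with the block. It remained a low gene in GCPB+, at 1.36, 2.70 and 1.09 CPM. Bid averaged 14.8 CPM in GCEPB+, 16.8 in GCEPB- and 1.96 in cortical astrocytes.

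Pdgfra, which encodes the PDGF receptor of oligodendrocyte progenitors (chromosome 5), was the gene that fell. It had 81, 84 and 402 counts in GPB+ and 1, 1 and 0 counts in GCPB+, that is, 4.06, 6.05 and 17.8 CPM against at most 0.0820 CPM. GPB+ replicate 3 held most of these counts, yet all 3 GPB+ libraries lay far above GCPB+. The ratio of summed counts was 345, with an exact 95% counting interval of 95.2 to 2859, and the edgeR adjusted p was 0.0381 (0.0584 in the 6 libraries alone, and 0.0827 there with the block). Such intervals and floors reflect counting error alone, since the reads carried no molecular identifiers. In bulk samples, fewer cells of a type and less RNA per cell cannot be told apart.

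Pdgfra and Bid, with Plxna2, lost their calls when libraries were left out 1 at a time, except that Pdgfra kept its call without GPB+ replicate 1 (edgeR adjusted p = 0.0363). Without the other 5 libraries, Pdgfra had adjusted p of 0.0870 to 0.210. Bid had 0.0552 to 0.140 and Plxna2 0.0977 to 0.262 without any 1 of the 6.

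**Figure D1:**
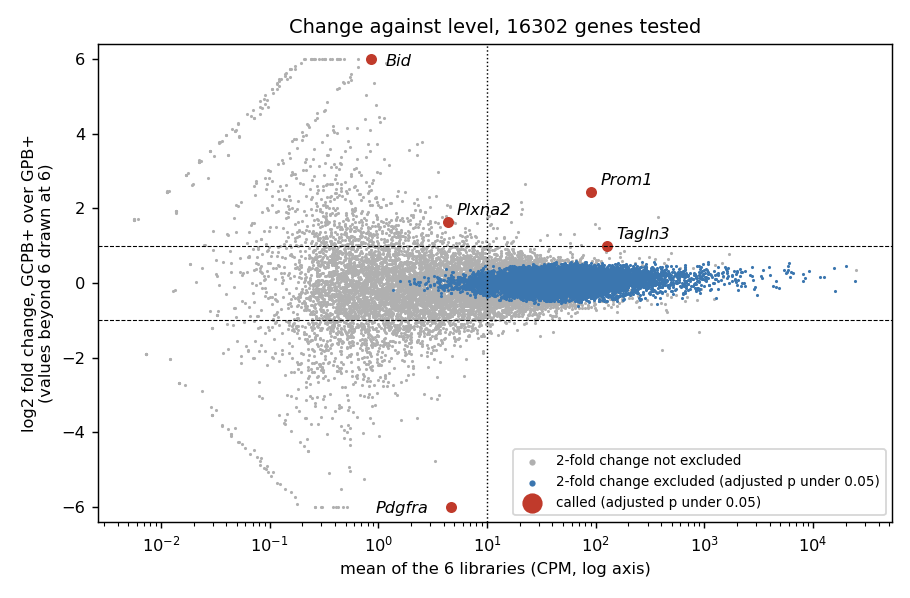
Log2 fold change of GCPB+ over GPB+ against the mean CPM of the 6 libraries (log axis) for 16302 genes, with dashed lines at a 2-fold change and a dotted line at 10 CPM. Blue genes have a 2-fold change excluded, and the 5 red genes passed the test for a difference; fitted values of genes with no or few counts in a group are drawn at 6.

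For well-measured genes the counts set narrow limits on any difference. A 2-fold change in either direction was excluded for 7203 of 9289 genes, or 77.5% (2 one-sided edgeR tests, the larger p, adjusted over all genes tested). Over all tested genes the share was 46.7%. A 3-fold change was excluded for 9108 genes (98.1%), a 4-fold change for 9237 (99.4%) and an 8-fold change for 9281 (99.9%). A 1.5-fold change was excluded for 0 genes after adjustment, while the unadjusted 95% interval lay within 1.5-fold for 1854. The smallest fold outside a gene's 95% interval had a median of 1.70, with 1.42 and 2.34 as the 10th and 90th percentiles.

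Precision followed the level. Of genes with a mean of 3 to 10 CPM, 16.2% had a 2-fold change excluded, against 57.9% at 10 to 30 CPM, 86.0% at 30 to 100 and 1473 of 1550 genes at 100 to 300 CPM. Under 1 CPM it was 0 of 2727 genes, so a difference there was not detectable at this depth unless it was large. Of the 100 highest genes, all above 1076 CPM, 94 had a 2-fold change excluded. Estimated changes of 2-fold or more were seen in 56 well-measured genes, 34 higher and 22 lower, and Prom1 was the 1 gene whose whole 95% interval lay beyond 2-fold.

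**Figure D2:**
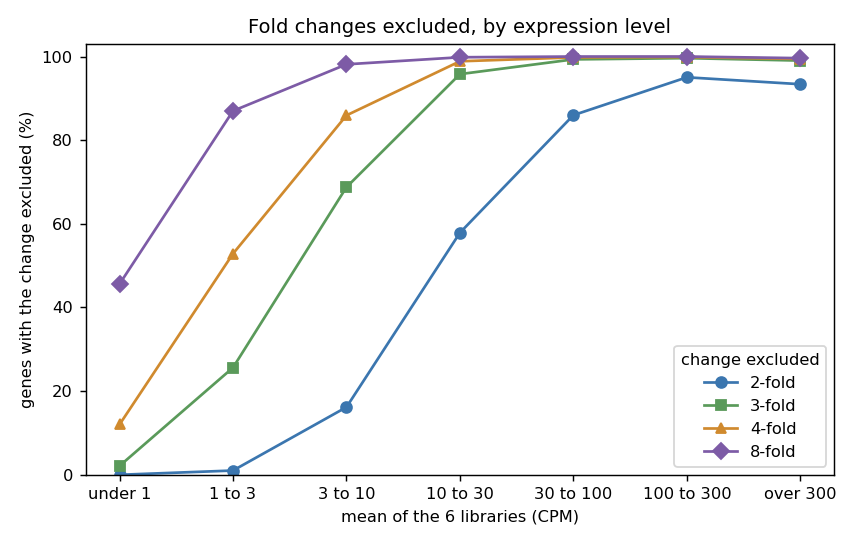
Percentage of genes for which a 2-, 3-, 4- or 8-fold change was excluded (adjusted p under 0.05), by the mean CPM of the 6 libraries. At 30 to 100 CPM the share for 2-fold was 86.0%, and under 1 CPM it was 0.

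In the other comparisons of the fit, a 2-fold change was excluded for a smaller share of well-measured genes. It was 25.5% between GCEPB+ and GCPB+, 57.8% between GPB+ and cortical astrocytes and 53.9% between GCEPB+ and GCEPB-. This share falls with larger differences as well as with wider intervals, and interval widths were not compared. The median absolute log2 fold change of well-measured genes was 0.20 between GCPB+ and GPB+, against 0.66, 0.30 and 0.32 in those comparisons. Shared libraries make these values descriptions, with no test between them.

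The 10 narrowest intervals included receptors and regulators of glial cells. S1pr1, a sphingosine-1-phosphate receptor, measured 4583, 4765 and 4057 CPM in GPB+ and 4221, 4990 and 4807 CPM in GCPB+, with an interval of -0.22 to 0.35 on the log2 scale. Nfia, a transcription factor of astrocyte development, had an interval of -0.10 to 0.45, and Ntrk2, the BDNF receptor, -0.14 to 0.43. Tcf4 and Scg3, a granin of secretory granules, had intervals of -0.14 to 0.38 and -0.02 to 0.53.

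Among these narrow intervals some did not include 0, although none of the genes passed after adjustment. Ednrb, an endothelin receptor of astrocytes, measured 1678, 1873 and 1821 CPM in GPB+ and 2000, 2343 and 2250 CPM in GCPB+. Its groups did not overlap, and its log2 fold change was 0.30 (95% interval 0.01 to 0.58). Emc3, Eprs and Tmem59 had log2 fold changes of 0.40, 0.32 and 0.38, all with a 2-fold change excluded. For 4933434E20Rik it was 0.16, with 0 inside the interval.

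Astrocyte genes had a 2-fold change excluded about as often as well-measured genes at large. Of 27 well-measured genes of the astrocyte list it was excluded for 21, against 77.5% of all, and 27 had a 4-fold change excluded, with 0 of 28 tested passing the test for a difference (edgeR; 2 at an unadjusted p under 0.05, 0 by DESeq2). The median log2 fold change was 0.20, with 21 of 28 estimates above 0. Gja1, the connexin 43 gap junction gene, measured 10836, 13391 and 11654 CPM in GPB+ and 11201, 15843 and 13419 CPM in GCPB+. Slc1a3, the glutamate transporter GLAST, had a log2 fold change of 0.15 with an interval of -0.19 to 0.49. The 6 that were not bounded within 2-fold were Gfap, Agt, Aqp4, S100b, Htra1 and Hepacam, with log2 fold changes of -0.46 (Hepacam) to 0.80 (Gfap).

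Of 24 well-measured genes of quiescent stem cells, 21 had a 2-fold change excluded, and the others were Prom1, Hes5 and Hopx. The list leaned to GCPB+, with a median log2 fold change of 0.18 and 18 of 24 estimates above 0. At an unadjusted p under 0.05 there were 6 higher members and 0 lower, against 7.12% of all genes. Both the 6 and the 18 include Prom1, whose protein was used for the sort, and it was the 1 that passed. Apoe, an apolipoprotein gene with a mean of 24217 CPM over the 6 libraries, had a log2 fold change of 0.06 (95% interval -0.35 to 0.46). Cst3, cystatin C, had 0.46 (0.14 to 0.79, adjusted p = 0.645, edgeR), and its 2-fold change was excluded. Hopx, a marker of quiescent stem cells, measured 20.5, 24.5 and 12.9 CPM in GPB+ and 33.4, 47.2 and 46.9 CPM in GCPB+. Its libraries did not overlap, but its log2 fold change of 1.14 (95% interval 0.44 to 1.84) did not pass (edgeR adjusted p = 0.619).

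Hes5, the Notch target, varied more by replicate number than by group. It measured 1739, 557 and 649 CPM in GPB+ and 1939, 409 and 276 CPM in GCPB+, high in both libraries numbered 1. The interval of -1.54 to 1.21 excluded neither direction of a 2-fold change. Of 12 well-measured Notch genes, 8 had a 2-fold change excluded. The others were Hes5, Lfng, Notch3 and Heyl.

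Apical and ciliary genes share their place in the cell with CD133, and among those tested Prom1 alone passed (edgeR). Of 17 well-measured genes of the apical membrane list, 14 had a 2-fold change excluded, against 77.5% of all well-measured genes. Besides Prom1 the exceptions were Prkci (-0.60 on the log2 scale) and Crb2 (-0.51), and Prom1 was the 1 of 22 tested that passed. Ttyh1, a membrane protein of protrusions, had a log2 fold change of -0.05 with an interval of -0.39 to 0.29. Of 26 well-measured primary cilium genes, 24 had a 2-fold change excluded, with a median log2 fold change of 0.01 over 29 tested. The share of all genes rose with level, to 86.0% at 30 to 100 CPM, and levels were not matched.

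Ependymal genes were low, and of 32 tested a 2-fold change was excluded for 5 and left undecided for the rest. All 5 well-measured members, Rfx3 and Rarres2 the highest, had a 2-fold change excluded. The summed level of 32 tested members was 309 to 337 CPM in GPB+ and 346 to 370 CPM in GCPB+, and 0 of 32 passed (edgeR; 0 at an unadjusted p under 0.05, against 7.12% of all genes, and 0 by DESeq2).

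Translation genes and most metabolic genes were bounded within 2-fold. All 26 cytosolic ribosomal protein genes, all 24 oxidative phosphorylation genes, all 24 fatty acid oxidation genes and all 18 cholesterol synthesis genes had a 2-fold change excluded, as did 13 of 15 well-measured glycolysis genes. In the order of the first 4 lists, the median log2 fold changes were 0.30, 0.29, 0.18 and 0.32, against -0.0029 over all tested genes and 0.03 over well-measured genes. Small differences thus leaned to GCPB+ in these 4 lists, with 25 of 26, 24 of 24, 22 of 24 and 15 of 18 estimates above 0, but 0 members passed (edgeR; 3, 5, 3 and 5 at an unadjusted p under 0.05, all higher, against 7.12% of all genes, and 0 by DESeq2). Ldha, lactate dehydrogenase A, measured 199, 189 and 194 CPM in GPB+ and 326, 291 and 311 CPM in GCPB+. Its libraries did not overlap, at a log2 fold change of 0.68 (95% interval 0.34 to 1.01, edgeR adjusted p = 0.389), and DESeq2 called it. A 2-fold change was not excluded for Ldha or for Pla2g7. Pla2g7, a lipoprotein-associated phospholipase, measured 1284, 1380 and 1019 CPM in GPB+ and 2013, 2544 and 1815 CPM in GCPB+. It too was apart between groups, at 0.79 (95% interval 0.37 to 1.21, edgeR adjusted p = 0.472, and 0.0827 under the block).

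In signalling lists the shares were near the 77.5% of all well-measured genes or under it. A 2-fold change was excluded for 10 of 15 well-measured BMP and TGF-beta genes, 9 of 13 Wnt genes, 7 of 9 hedgehog genes and 5 of 8 PDGF and EGF family genes (8 under the block). Bmp6, a BMP ligand, measured 5.81, 18.1 and 8.92 CPM in GPB+ and 30.9, 24.3 and 22.3 CPM in GCPB+. Its log2 fold change was 1.24 and that of Bmp7 -0.89, and neither passed. Of cell cycle genes, 5 of 7 well-measured members had a 2-fold change excluded, and 0 of 38 tested passed (edgeR; 9 at an unadjusted p under 0.05, 6 higher and 3 lower, against 7.12% of all genes, and 1, Cenpe, by DESeq2).

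**Figure D3:**
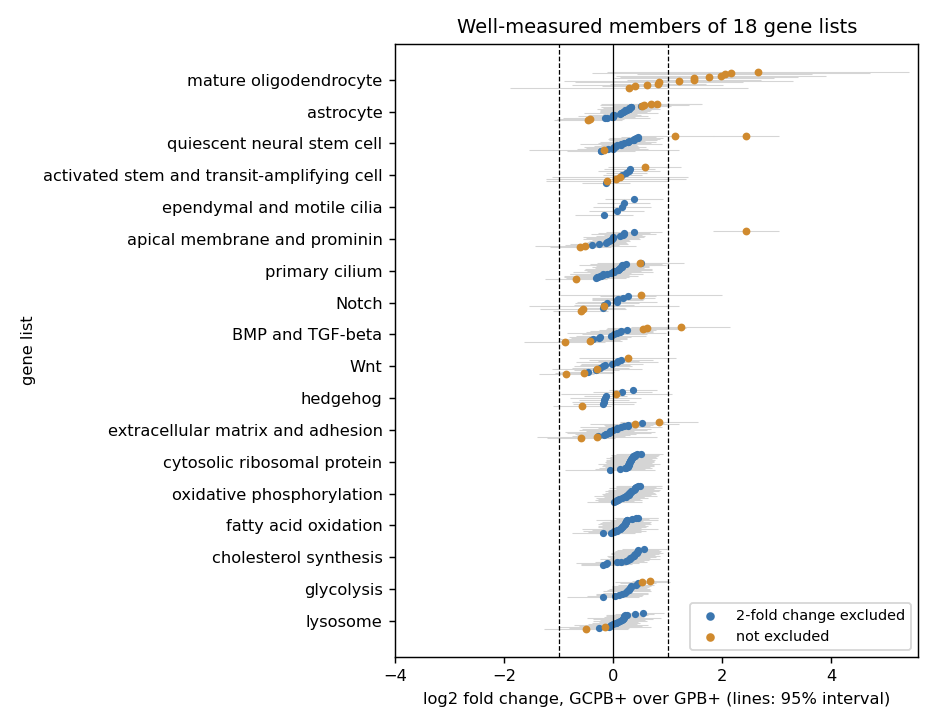
Log2 fold change of GCPB+ over GPB+ with 95% intervals for the well-measured members of gene lists; dashed lines mark a 2-fold change, blue points have it excluded and orange points do not. The mature oligodendrocyte list is the one in which 0 of 13 members had a 2-fold change excluded.

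Within same-numbered pairs, a gene was counted when its ratio of CPM, with 0.5 CPM added, was at least 2-fold in the same direction in all 3. There were 41 such genes higher in GCPB+ (0.252% of those tested) and 30 lower (0.184%), of which 17 were well measured (0.183%), 13 higher and 4 lower. The other 54 had a mean under 10 CPM. Of the 71 genes, 4 passed the test for a difference. Any consistent sign over the 3 pairs was seen for 3113 genes higher and 2530 lower, 34.6% in all. The libraries of the groups did not overlap for 1226 higher (7.52%) and 856 lower genes (5.25%).

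Replicate number carried a large share of the spread. Over well-measured genes the median SD of the 3 pair differences in log2 CPM was 0.28, against 0.41 from the spread within the groups. With the number as a block in the 6 libraries, 5 of 14712 genes passed, 3 higher, among them Prom1 and Tubb4a, and 2 lower, Prss56 and Crym. The same 6 libraries without the block called 2 genes, Prom1 and Crym, both also called with it. Values under the block, here and elsewhere, are from this fit of the 6 libraries.

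Crym, which encodes mu-crystallin, a thyroid hormone-binding protein, was lower in all 3 pairs. It measured 645, 639 and 607 CPM in GPB+ and 187, 148 and 213 CPM in GCPB+, so the groups were far apart and tight within. The log2 fold change was -1.79 with an interval of -2.75 to -0.82 and did not pass over all libraries (edgeR adjusted p = 0.498), while under the block it was -1.82 (-2.12 to -1.51, adjusted p = 0.00510). Crym averaged 3.76 CPM in cortical astrocytes, 44.4 in GCEPB+ and 3.42 in GCEPB-. The 6 libraries alone, with no block, also called it.

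Prss56, a serine protease gene, was lower within every pair while the groups overlapped. It measured 711, 2579 and 484 CPM in GPB+ and 293, 1047 and 185 CPM in GCPB+. The groups overlap, since both libraries numbered 2 were high, but each GCPB+ library lay below its own GPB+ partner by nearly the same ratio. The log2 fold change was -1.31 with an interval of -3.62 to 1.003 without the block (edgeR adjusted p = 0.821), and -1.34 with one of -1.55 to -1.13 under it (adjusted p = 0.00355).

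The other well-measured genes lower in all pairs were Efna5 and Klhl8. Efna5, an ephrin ligand of axon guidance, measured 53.5, 63.8 and 54.1 CPM in GPB+ and 20.6, 25.4 and 23.6 CPM in GCPB+. The libraries did not overlap, at a log2 fold change of -1.30 (95% interval -1.77 to -0.83), with an edgeR adjusted p of 0.0710 and 0.0962 under the block. Klhl8 measured 18.7, 26.5 and 13.4 CPM in GPB+ and 8.14, 11.3 and 3.90 CPM in GCPB+, at a log2 fold change of -1.33.

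Fzd5, a Wnt receptor, had one of the smallest p-values among the lower genes but was under 2-fold in 1 pair. It measured 44.7, 56.8 and 33.1 CPM in GPB+ and 13.1, 17.6 and 19.5 CPM in GCPB+, with a log2 fold change of -1.42 (95% interval -2.09 to -0.75, edgeR adjusted p = 0.324). DESeq2 called Fzd5. Rnf145, a ubiquitin ligase gene, and Ccnl1, a cyclin of splicing, had log2 fold changes of -0.96 and -0.80. Neither overlapped between groups and neither passed (edgeR adjusted p = 0.389 and 0.535).

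Below 10 CPM, genes lower in all pairs included regulators at low level. Lmo1, a LIM-domain cofactor, measured 7.81, 14.6 and 8.84 CPM in GPB+ and 3.28, 0.984 and 1.22 CPM in GCPB+ (log2 fold change -2.48, edgeR adjusted p = 0.276, called by DESeq2). Tbx3, a T-box factor, measured 17.1, 6.77 and 6.80 CPM in GPB+ and 3.28, 1.64 and 2.51 CPM in GCPB+ (-2.04, adjusted p = 0.666). Both were apart between groups. Fzd9, another Wnt receptor, had -1.87, Dpyd, an enzyme of pyrimidine breakdown, -1.36, Ptprn2, a secretory granule phosphatase-like protein, -1.42, and AK031532 -1.41, with adjusted p from 0.590 to 0.666.

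Hsd11b1, which regenerates active glucocorticoid, was higher in all pairs. It measured 45.1, 32.3 and 32.03 CPM in GPB+ and 93.8, 87.5 and 88.6 CPM in GCPB+. The log2 fold change was 1.30 (95% interval 0.71 to 1.89), and the edgeR adjusted p was 0.276, or 0.0853 under the block. DESeq2 called Hsd11b1, as did the voom fit of limma with sample weights. Ptgds, prostaglandin D synthase, measured 33.8, 28.01 and 19.6 CPM in GPB+ and 86.9, 74.8 and 40.6 CPM in GCPB+. Efhd1, a mitochondrial calcium-binding protein, measured 27.9, 17.5 and 15.8 CPM in GPB+ and 74.1, 39.7 and 36.7 CPM in GCPB+. Both were apart between groups, at 1.31 and 1.30 on the log2 scale, and neither passed (edgeR adjusted p = 0.645 for each). Stmn4, a microtubule regulator of the stathmin family, had 1.73 and 1810041L15Rik 1.62.

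**Figure D4:**
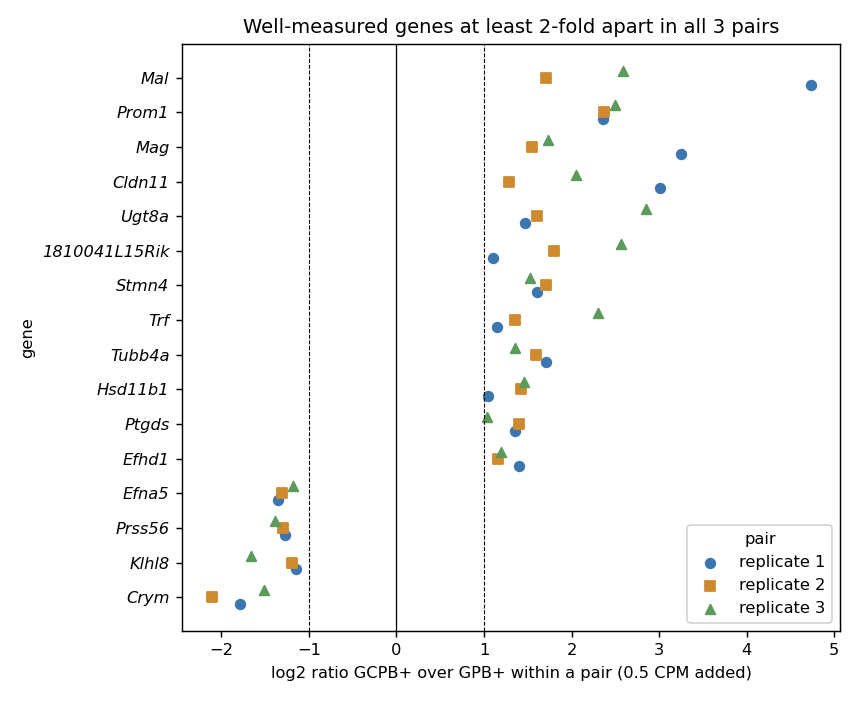
Log2 ratio of GCPB+ over GPB+ CPM within each same-numbered pair for 16 of the 17 well-measured genes at least 2-fold apart in all 3 pairs; dashed lines mark 2-fold. Crym, Klhl8, Prss56 and Efna5 lie to the left, and Prss56 differs little from pair to pair.

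Genes of mature oligodendrocytes, the myelinating cells, made up 6 of the 13 well-measured genes that were higher in every pair. In all, 7 list members were 2-fold higher in all 3 pairs, among them Trf, Mal, Cldn11, Mag, Ugt8a and Opalin, the last under 10 CPM. To show what stands before the start of such genes, the windows below run from 250 bases before to 50 after a RefSeq transcript start (GRCm38.p6), and a promoter was found for 5 of these 7. SOX10 is a known regulator of myelin genes, so the SOX core motifs ACAAAG and ACAATG and their reverse complements CTTTGT and CATTGT were searched on both strands, and matches are in capitals. Mag, a myelin adhesion protein, has its window at chr7:30914873-30915172, minus strand, and Opalin, a myelin membrane protein, at chr19:41077064-41077363, minus strand. Mal, a myelin proteolipid, has its window at chr2:127656646-127656945, minus strand, with no match in it.
Mag: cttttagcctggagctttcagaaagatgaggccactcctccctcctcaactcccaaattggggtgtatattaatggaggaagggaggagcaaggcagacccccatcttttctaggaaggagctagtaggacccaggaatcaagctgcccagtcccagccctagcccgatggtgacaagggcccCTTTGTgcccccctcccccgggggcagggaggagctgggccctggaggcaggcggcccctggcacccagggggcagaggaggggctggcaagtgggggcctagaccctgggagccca
Opalin: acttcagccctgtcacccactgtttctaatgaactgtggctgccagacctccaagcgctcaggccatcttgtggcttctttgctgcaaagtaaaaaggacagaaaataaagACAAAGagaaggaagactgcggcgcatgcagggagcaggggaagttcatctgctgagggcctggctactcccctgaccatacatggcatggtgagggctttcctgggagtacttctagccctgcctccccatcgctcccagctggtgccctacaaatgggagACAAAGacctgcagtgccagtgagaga
Mal: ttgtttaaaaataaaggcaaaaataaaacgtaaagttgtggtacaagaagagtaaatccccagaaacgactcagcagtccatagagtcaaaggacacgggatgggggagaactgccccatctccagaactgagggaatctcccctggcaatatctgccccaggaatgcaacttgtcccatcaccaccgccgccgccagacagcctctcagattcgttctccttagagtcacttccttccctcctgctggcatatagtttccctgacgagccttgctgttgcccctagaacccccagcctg

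The match in Mag began 67 bases before the start, and those in Opalin 139 before and 23 after it. Of the 5 windows, 2 held a motif, against 28.6% of all 32851 promoter windows of this length. A match is a description of the letters and not a site.

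Tubb4a, a tubulin of myelinating cells and neurons, measured 54.9, 54.4 and 39.4 CPM in GPB+ and 181, 165 and 101 CPM in GCPB+, with no overlap between groups. Its log2 fold change was 1.59 (95% interval 0.59 to 2.59, edgeR adjusted p = 0.645), and under the block 1.55 (1.23 to 1.86, adjusted p = 0.0146).

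Mag measured 3.86, 12.7 and 6.01 CPM in GPB+ and 40.9, 38.1 and 21.2 CPM in GCPB+. Mal measured 1.05, 12.3 and 5.17 CPM in GPB+ and 40.6, 41.4 and 33.5 CPM in GCPB+. Both were apart between groups, GPB+ replicate 1 being the lowest, and neither passed (edgeR adjusted p = 0.739 and 0.703, and 0.257 and 0.311 under the block). Trf, the transferrin gene, measured 70.9, 72.0 and 25.6 CPM in GPB+ and 158, 184 and 128 CPM in GCPB+. Cldn11, the claudin of myelin, measured 3.46, 14.8 and 7.16 CPM in GPB+ and 31.4, 36.6 and 31.2 CPM in GCPB+. Ugt8a, which makes the myelin lipid galactosylceramide, and Opalin had log2 fold changes of 2.04 and 2.09, and none of these 4 passed. Mobp, in contrast, measured 49.8, 8.21 and 3.98 CPM in GPB+ and 31.0, 21.9 and 22.9 CPM in GCPB+, where GPB+ replicate 1 was the highest of all.

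As a list, all 17 tested oligodendrocyte genes had estimates above 0, with a median log2 fold change of 1.48 against -0.0029 over all genes. The groups did not overlap for 10 of 17, all higher, against 7.52% of all genes, and 5 of 17 had an unadjusted p under 0.05, against 7.12% of all genes, but 0 passed (lowest edgeR adjusted p = 0.661; 0 by DESeq2). Under the block 1 passed, and a 2-fold change was excluded for 2. The summed level was 1088, 1187 and 723 CPM in GPB+ and 1843, 2333 and 1642 CPM in GCPB+, and the defining genes Mbp, Mag and Mog were above 0 in every library. The sum was thus higher in each GCPB+ library than in any GPB+ library, while 7 of 17 members, Mobp and Cnp among them, overlapped between groups. Cnp alone held 524, 614 and 405 CPM of the GPB+ sums and 666, 803 and 568 CPM of the GCPB+ sums. It averaged 379 CPM in cortical astrocytes. The part of these 17 genes in the other differences was not tested.

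Of the progenitor genes of the same lineage, Pdgfra passed and 16 of 17 did not. Gpr17, a receptor of committed progenitors, measured 4.26, 3.46 and 11.7 CPM in GPB+ and was at 0, 0 and 0.610 CPM in GCPB+, 2-fold lower in all 3 pairs (edgeR adjusted p = 0.649). The summed level of 17 tested progenitor genes was 397 to 437 CPM in GPB+ and 422 to 493 CPM in GCPB+. Most of this sum was Rlbp1 and Itpr2, so it says little about progenitors. Itpr2 averaged 165 CPM in GPB+, 149 in GCPB+ and 109 in cortical astrocytes. The median log2 fold change of the list was -0.14, with 11 of 17 below 0. At an unadjusted edgeR p under 0.05 there were 4 lower members and 1 higher, against 7.12% of all genes. Rlbp1, a retinaldehyde-binding protein gene, was the highest that leaned to GCPB+, at 130, 166 and 96.2 against 229, 277 and 202 CPM (log2 fold change 0.85, edgeR adjusted p = 0.498).

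**Figure D5:**
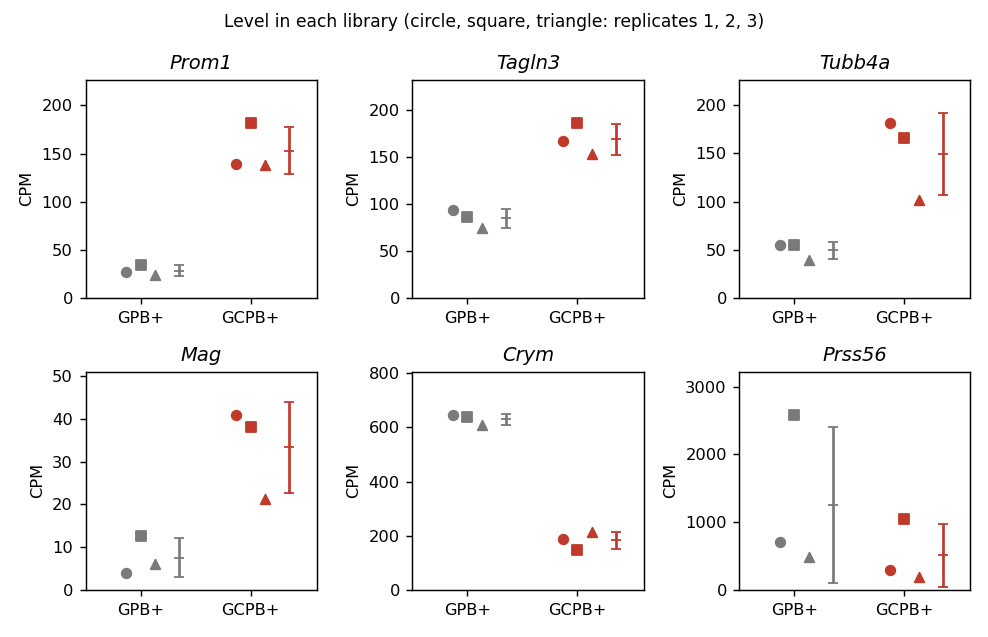
CPM in each library of GPB+ (grey) and GCPB+ (red) for Prom1, Tagln3, Tubb4a, Mag, Crym and Prss56; circles, squares and triangles are replicates 1, 2 and 3, and bars give the mean ± SD of 3. Groups are apart in each panel but that of Prss56, where replicate 2 is high in both.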

How the data were processed

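RNA of sorted cells was amplified from poly(A) tails, tagmented and sequenced as paired-end reads, per the labels' protocols. Reads were handled with TopHat2 2.1, cutadapt, HTSeq and Cufflinks on mm10, per the submitters' processing notes, which give no roles. The annotation and the strand setting are not given in the sources used here. Per gene, the authors deposited raw whole-number counts and FPKM values (fragments scaled to length and library size by the authors), used in an alternative. A deposited text table of surface markers was used only to describe the groups. Of the count rows, 28 that named no usable gene (0.184% to 0.323% of a library's counts) were left out, leaving 32735 genes.

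Differences were tested on the counts with the quasi-likelihood test of edgeR 4.0.16 under R 4.3.3 (TMM scaling, filterByExpr, no covariate, all 15 libraries in 5 groups), adjusted by Benjamini-Hochberg over 16302 genes at 0.05. A 95% interval holds the fold changes that this test does not reject, and a fold change was excluded by 2 one-sided tests at that fold. The SE divides the size of the log2 fold change by the root of F. Levels are CPM on normalized library totals. The procedure was tested on simulated data. Alternatives used limma 3.58.1 and DESeq2 1.42.0. Members and lists were chosen with earlier results of these data known.

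Titles give each group replicates numbered 1 to 3. Libraries with the same number departed from their group means together (correlation across genes 0.155, 0.116 and 0.234), so the numbers were taken to pair them. This rests on the data alone, as no label says so. Other combinations were all below 0, but departures from a group mean sum to 0, so their sign is no separate support. Of the GCPB+ libraries, replicate 3 had the highest uncentred correlation with each of GPB+ replicates 1, 2 and 3 (0.935, 0.962 and 0.968). Chi-square per gene was instead lowest for the same number (53.1, 27.0 and 55.8). No 2 libraries agreed within sampling noise (chi-square per gene 26.7 to 104). TMM factors of the 6 libraries were 0.825 to 0.951, and 3 counts correspond to 0.102 to 0.246 CPM. Genes were named by rule: the sorting genes, the called genes and those of smallest p at 20 CPM, up to 10 well-expressed genes per direction of those changed in all pairs, the 10 narrowest intervals, and for each list its called and 2 highest members. Others were added after their values were seen, to complete counts. Not all named by the rule are described, and 1 gene is not reported here. Of 96 named genes, 94 matched RefSeq by symbol.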

Additional observations from a re-analysis of the deposited data

How the results depend on the processing

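The count of well-measured genes with a 2-fold change excluded kept within 1.5 times of 7203 under other scaling factors, filters, fits and in 15-library fits without 1 library (5470 to 6107). It was 3721 when well measured meant 50 CPM and 0 for a 1.5-fold change. Calls were less stable. Higher and lower genes numbered 1 and 1 in the 2 groups alone, 3 and 2 with the replicate block there, 2 and 0 with the replicate block in all libraries, 24 and 15 by DESeq2, 3 and 2 by limma on log2(FPKM + 1) and 2 and 0 on log2(FPKM + 0.1). Lower genes were 2 with no filter and 2 with a filter of 5 CPM in 3 libraries, Pdgfra and Efna5 in both. Without 1 library, higher genes numbered 0 to 2 and lower genes 0 to 1. Leaving out GPB+ replicate 3 gave 0 calls, against 1133 genes at an unadjusted p under 0.05. Genes 2-fold apart in every pair were 15 higher and 9 lower with 2 CPM added, 152 and 176 at 1.5-fold, and 24 higher with a filter of 5 CPM in 3 libraries. With 1 pair left out they were 92 to 189 higher and 122 to 155 lower. DESeq2 called all 5 main genes among its 39. In the 2 groups alone, Tagln3, Bid, Plxna2 and Pdgfra were not called with the block or without it, and Crym was called in both. The block added Tubb4a and Prss56 there. In all libraries it ended the calls of Bid, Plxna2 and Pdgfra (edgeR adjusted p = 0.0531 to 0.0656) and kept those of Prom1 and Tagln3. It changed no other test for a change of a gene named here. Over all named genes and alternatives, 501 tests for a change stayed on their side of the threshold, 15 were gained and 45 lost, and 992 tests for exclusion stayed, 18 were gained and 61 lost. List medians moved beyond the spread of the pairs in 93 cases of 510. Except for the pair settings and the filters, which change what is counted, the cause was not tested. Under 10 CPM, depth leaves 2-fold changes mostly undecided.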

Other observations

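Some of the highest genes differed widely between replicate numbers. Of 514 genes with a mean over 300 CPM, a 2-fold change was excluded for 480. Tsc22d3, a glucocorticoid-induced gene, measured 725, 1173 and 2260 CPM in GPB+ and 881, 1459 and 2310 CPM in GCPB+, highest in both libraries numbered 3. Btbd17 measured 471, 358 and 320 CPM in GPB+ and 550, 157 and 68.0 CPM in GCPB+, highest in both numbered 1. Its pair differences were 0.22, -1.18 and -2.22 on the log2 scale, and with the block its log2 fold change was -1.08 (95% interval -2.002 to -0.16, edgeR adjusted p = 0.405).

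Markers of cells outside the glial lineage were at like summed levels in the groups. The endothelial list summed to 438 to 558 CPM in GPB+ and 517 to 544 CPM in GCPB+, mostly from Bsg. The pericyte and smooth muscle list summed to 72.6 to 87.8 and 63.0 to 88.6 CPM, and the microglial list to 66.8 to 90.8 and 62.8 to 119 CPM. The neuroblast list summed to 1765 to 1977 and 1662 to 1923 CPM, mostly from Ncam1, which averaged 1693 CPM in GPB+ and 1685 CPM in GCPB+. Ncam1 also averaged 1694 CPM in cortical astrocytes, so this sum says little about neuroblasts. Of 22 tested neuroblast genes, 14 had estimates below 0 and 8 above. No member of these 4 lists passed by edgeR or DESeq2. In the ventral and septal list, whose sum was 651 to 704 CPM in GPB+ and 173 to 243 CPM in GCPB+, most of the sum was Crym.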
